A study of Mus musculus with 18 samples.

Results

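The pyruvate dehydrogenase (PDH) kinases *Pdk1*, *Pdk2*, *Pdk3* and *Pdk4*, the PDH phosphatase genes *Pdp1* and *Pdp2*, and the core subunit genes of the complex itself, *Pdha1*, *Pdhb*, *Dlat* and *Dld*, were examined in the ileum of mice with a conditional *Ppara* transgene. These 10 genes were chosen by name out of the 55487 genes in the count files, each was found in the files under its own symbol, and all 10 passed the filter on low counts. RNA was sequenced from full-thickness ileum of 18 C57BL/6J mice, with 1 library per mouse, so the libraries hold smooth muscle, connective tissue and immune cells beside the epithelium. All mice carried CAG-*Ppara*,-*EGFP*, a transgene at the *Col1a1* locus whose cassette lies in reverse until Cre inverts it, and all received tamoxifen at 100 mg/kg on 3 days. Control mice (3 females and 3 males) lacked *Villin-CreERT2*, the tamoxifen-dependent recombinase driven in intestinal epithelium that would invert the cassette, and the number of transgene copies they carried is not given in the sources used here. IEC-*Ppara* heterozygous mice (2 females and 4 males) and IEC-*Ppara* homozygous mice (2 females and 4 males) carried *Villin-CreERT2* and differed in the number of transgene copies. Animals were 8 to 13 weeks old, were fed chow and were analysed 2 weeks after tamoxifen. The presence of Cre thus cannot be told apart from the induced *Ppara*, and no library separates epithelium from the rest of the wall.

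The PDH complex sits in the mitochondrial matrix and turns pyruvate into acetyl-CoA, the step that commits carbon from glucose to oxidation or lipid synthesis. The kinases phosphorylate the E1α subunit, encoded by *Pdha1*, and switch the complex off, while the phosphatases remove the phosphate and switch it back on. *Pdk4* is the kinase isoform best known for its response to fasting and to fatty acids, is a classical target of PPARα in liver, muscle and heart, and spares glucose when fat is burned. In the small intestine most of the epithelium consists of enterocytes, which oxidise glutamine, fatty acids and glucose.

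Promoter windows from RefSeq (GRCm38.p6, 250 bases before to 50 after the annotated start) were found for 9 of the 10 genes, in 11 windows, with none for *Pdp1*. The windows of *Pdk4*, the only one of the 10 genes called against control, and of *Pdk2* (the upstream of its 2 windows), the most abundant kinase per length by group mean in every genotype, are printed to set the kinase that was called beside one that was not. *Pdk4* lies on the minus strand at chr6:5496229-5496528 and *Pdk2* on the minus strand at chr11:95041322-95041621; each is printed 5′ to 3′ on the gene's own strand, with matches to CCAAT on either strand, the NF-Y box, in capitals.
Pdk4: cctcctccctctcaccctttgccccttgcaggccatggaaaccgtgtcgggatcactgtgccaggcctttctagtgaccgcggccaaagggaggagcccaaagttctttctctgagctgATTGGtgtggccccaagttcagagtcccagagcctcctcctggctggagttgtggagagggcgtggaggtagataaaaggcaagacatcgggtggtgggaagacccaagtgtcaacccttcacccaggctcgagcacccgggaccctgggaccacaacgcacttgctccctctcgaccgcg
Pdk2: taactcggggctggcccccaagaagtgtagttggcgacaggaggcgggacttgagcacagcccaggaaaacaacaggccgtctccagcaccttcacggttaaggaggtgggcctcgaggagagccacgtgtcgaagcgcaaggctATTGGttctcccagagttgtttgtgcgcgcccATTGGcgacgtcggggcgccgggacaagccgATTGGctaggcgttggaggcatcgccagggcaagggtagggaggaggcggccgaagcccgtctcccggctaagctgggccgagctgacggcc
The single CCAAT match of *Pdk4* began 131 bases before the start, and *Pdk2* held 3 matches, beginning 105, 73 and 42 bases before the start, all 4 of them on the strand opposite to the gene. CCAAT was present in 6 of the 11 windows, from 6 genes (*Pdk2*, *Pdk3*, *Pdk4*, *Pdp2*, *Pdhb* and *Dld*), and in 37.4% of all 32851 windows in the table. The hexamer AGGTCA, the core of nuclear receptor elements, was found on neither strand of any of the 11 windows and in 16.3% of all windows, and its direct repeat AGGTCANAGGTCA, the form that PPARα with RXR binds, was in 0 of the 11 and in 0.0396% of all. The forkhead letters GTAAACA were also in 0 of the 11 windows and in 3.65% of all. GGGCGG, the GC box, was in 5 of the 11 windows, from 5 genes (*Pdk1*, *Pdk3*, *Pdp2*, *Pdhb* and *Dlat*), and in 35.7% of all. These are matches of letters in 300 bases and say nothing of sites farther away or of the factors themselves.

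*Pdk4* was the only one of the 10 genes called between either IEC-*Ppara* genotype and control. In CPM, a gene's reads scaled to a common library total, the control mice ranged from 1.31 to 16.1 with a median of 7.72, the heterozygous mice from 45.7 to 114 with a median of 65.9, and the homozygous mice from 61.9 to 179 with a median of 88.8. No heterozygous or homozygous library overlapped with a control library, the lowest of them lying 2.83 and 3.83 times above the highest control, while the heterozygous and homozygous mice overlapped between 61.9 and 114 CPM, with 3 of 6 heterozygous mice below every homozygous one. Behind these values stood 52 to 813 reads of *Pdk4* in a control library, 1945 to 4515 in a heterozygous one and 2888 to 7868 in a homozygous one. *Pdk4* (ENSMUSG00000019577; chromosome 6, 5483351 to 5496309, minus strand, GRCm38) averaged 8.00 ± 5.42 CPM (SD, n = 6) in controls, 72.2 ± 26.4 in heterozygous and 101 ± 41.6 in homozygous mice. It rose 12.7-fold in homozygous mice (log2 fold change 3.66, SE 0.44, 95% interval of the fold 6.69 to 23.9, edgeR adjusted p = 0.000122). In heterozygous mice *Pdk4* rose 9.32-fold (log2 fold change 3.22, SE 0.43, 95% interval of the fold 4.98 to 17.4, edgeR adjusted p = 0.000707). Homozygous against heterozygous, the log2 difference was 0.44 (95% interval -0.38 to 1.26, edgeR adjusted p = 0.758), an interval that holds both no difference and a doubling.

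Over all 12645 protein-coding genes tested, 47 (0.372%) rose and 5 (0.0395%) fell in homozygous mice, 37 (0.293%) rose and 0 (0%) fell in heterozygous mice, and 1 (0.00791%) differed between the IEC-*Ppara* genotypes. DESeq2 called 100 higher and 36 lower in homozygous mice, and edgeR without homozygous 1 called 44 higher and 12 lower. In heterozygous mice 669 genes of either direction had an unadjusted p under 0.05, limma-voom called 0 lower and DESeq2 called 11 lower. *Pdk4* was 1 of 10 genes called in each comparison with control, and 0 of 10 were called by edgeR, DESeq2 or limma-voom between the IEC-*Ppara* genotypes, where *Pdp2* alone had an unadjusted p under 0.05. Among all genes tested it stood 13th by p and 4th by log2 fold change in homozygous mice, and 10th and 4th in heterozygous mice. Libraries of homozygous and control mice did not overlap in CPM for 108 genes (0.854%), and those of heterozygous and control mice for 59 (0.467%); in each case *Pdk4* was the only one of the 10. The comparisons with control share the same 6 control libraries.

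**Figure D1:**
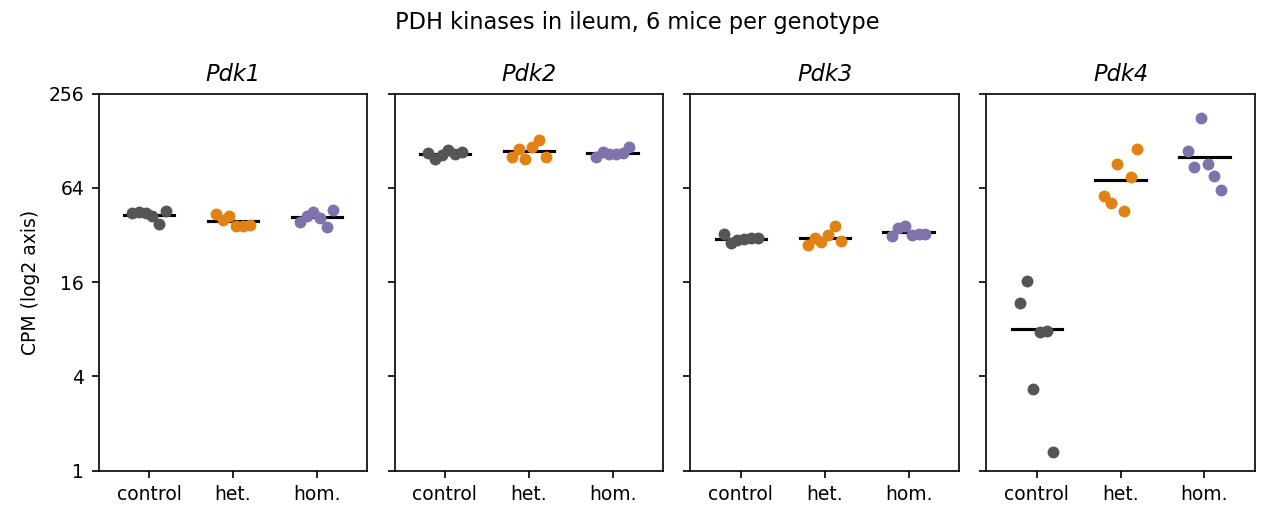
CPM of the PDH kinases in every mouse (points) on a log2 axis, by genotype, with the group mean as a line; het. and hom. are IEC-*Ppara* heterozygous and homozygous. The genotypes overlap for *Pdk1*, *Pdk2* and *Pdk3*, while *Pdk4* moves from 1.31 to 16.1 CPM in controls to 45.7 CPM and above in every IEC-*Ppara* mouse.

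The control mice differed 12.3-fold among themselves in *Pdk4*, from 1.31 CPM in control 6 to 16.1 CPM in control 2. Its coefficient of variation in controls was 67.8%, higher than that of 98.0% of the genes tested, against a median of 11.8% over all genes. Each of the other kinases was steadier in the same mice than most genes, with coefficients of variation of 6.69% for *Pdk1*, 4.51% for *Pdk2* and 4.59% for *Pdk3*. With 1 library at a time left out, the log2 fold change of *Pdk4* stayed between 3.44 (without homozygous 3) and 3.97 (without control 2) in homozygous mice and between 3.01 (without control 6) and 3.53 (without control 2) in heterozygous mice, and passed the threshold in all 18 fits of each.

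The other kinases did not pass the test in any comparison. *Pdk2*, the broadly expressed isoform, ranged from 98.2 to 112 CPM in controls (median 106), 97.3 to 130 in heterozygous (median 107) and 100.1 to 116 in homozygous mice (median 106). The difference from control was 1.30% for homozygous mice (95% interval -9.87% to 13.8%) and 5.83% for heterozygous mice (-5.83% to 18.9%). *Pdk1*, the isoform known as a target of hypoxia signalling, averaged 43.2 ± 2.89, 39.4 ± 3.02 and 41.6 ± 3.86 CPM in control, heterozygous and homozygous mice, with intervals of -13.7% to 7.72% (homozygous) and -16.6% to 3.99% (heterozygous). *Pdk3*, which is encoded on the X chromosome, averaged 30.4 ± 1.39, 30.7 ± 3.09 and 33.3 ± 2.01 CPM. For *Pdk3* 5 of 6 control libraries lay below every homozygous one, yet its difference of 9.86% (95% interval -1.90% to 23.0%) did not pass (edgeR adjusted p = 0.688).

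On a scale per transcript length (FPKM, which divides the scaled count by transcript length), where genes can be set against each other, *Pdk4* moved by group mean from the rarest kinase to the most abundant after *Pdk2*. *Pdk2* held 33.5 ± 1.51 FPKM in controls, *Pdk3* 11.9 ± 0.544, *Pdk1* 5.55 ± 0.371 and *Pdk4* 2.28 ± 1.54. *Pdk4* reached 20.6 ± 7.51 FPKM in heterozygous and 28.7 ± 11.8 in homozygous mice. Its share of the summed kinase level ranged from 0.710% to 8.77% in controls (median 4.11%), from 19.4% to 40.4% in heterozygous mice (median 25.7%) and from 24.2% to 48.8% in homozygous mice (median 32.6%). The groups of IEC-*Ppara* mice did not overlap with controls in this share, which rests on *Pdk4* itself and is a description. In 1 heterozygous and 1 homozygous mouse *Pdk4* exceeded *Pdk2*, with ratios of 1.02 and 1.52 as the highest of their groups, against a highest ratio of 0.148 in controls.

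**Figure D2:**
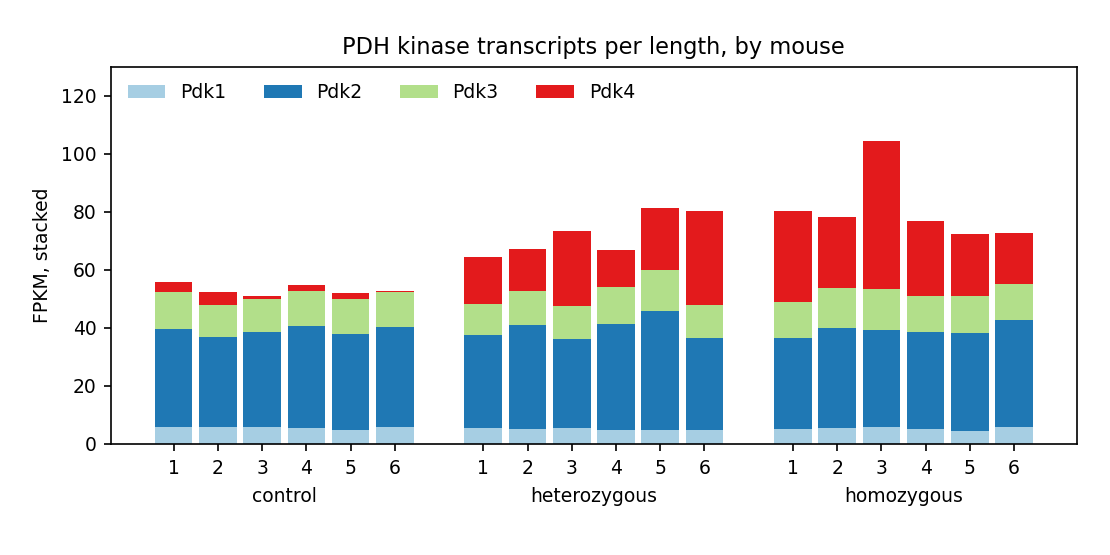
FPKM of the kinases stacked for each of the 18 mice, numbered by replicate within genotype. The part below *Pdk4* runs from 47.5 to 59.8 FPKM between mice, both in the heterozygous group, with group means of 50.9, 51.7 and 52.2 FPKM. The *Pdk4* part is larger in every IEC-*Ppara* mouse than in any control.

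Summed over the kinases, the level was 53.1 ± 1.78 FPKM in controls, 72.3 ± 7.18 in heterozygous and 80.8 ± 11.9 in homozygous mice, and without *Pdk4* it was 50.9 ± 1.90, 51.7 ± 4.84 and 52.2 ± 2.30. Set against *Pdha1*, which encodes the subunit the kinases act on, the kinase sum was 1.04 ± 0.0520 times its level in controls, 1.41 ± 0.122 in heterozygous and 1.62 ± 0.279 in homozygous mice. These sums compare transcripts, not protein or enzyme activity. By group mean per length across the 10 genes, *Pdk4* ranked 9th in controls, 4th in heterozygous and 3rd in homozygous mice, with *Pdha1* 1st and *Pdk2* 2nd in each genotype. In homozygous 3, however, *Pdk4* at 51.0 FPKM lay above *Pdha1* at 49.9 FPKM and *Pdk2* at 33.5 FPKM. Between libraries, the range of *Pdk4* overlapped with those of *Pdp2* and *Pdp1* in controls, of *Pdk2*, *Dld*, *Pdhb* and *Pdk3* in heterozygous and of *Pdha1*, *Pdk2*, *Dld* and *Pdhb* in homozygous mice.

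The phosphatases did not pass the test either, and their point estimates in homozygous mice had opposite signs. *Pdp1*, the calcium-stimulated isoform, was at a median of 7.32 CPM in controls (5.87 to 8.40), 8.57 in heterozygous (7.27 to 9.52) and 8.66 in homozygous mice (6.84 to 11.7). Its groups overlapped, with a difference of 24.4% in homozygous mice (95% interval 3.61% to 49.4%, edgeR adjusted p = 0.545) and 18.8% in heterozygous mice (95% interval -1.08% to 42.6%, adjusted p = 0.987). *Pdp2*, the isoform that answers to insulin, was at a median of 30.5 CPM in controls (25.5 to 37.6), 30.1 in heterozygous (27.4 to 32.3) and 26.0 in homozygous mice (22.8 to 29.4). Its difference was -16.3% in homozygous against control mice (95% interval -27.8% to -2.91%, edgeR adjusted p = 0.542) and -15.4% in homozygous against heterozygous mice (95% interval -27.0% to -1.86%, edgeR adjusted p = 0.642). Against control the log2 fold change of *Pdp2* in homozygous mice, -0.26, moved both ways with the setting. It was -0.16 without control 6 and -0.14 with smooth muscle markers as a covariate, but -0.31 without control 5 and -0.32 with enterocyte markers as a covariate, where its edgeR adjusted p was 0.0650, the lowest of the alternatives. Homozygous against heterozygous, it was -0.12 with smooth muscle markers as a covariate. *Pdp1* and *Pdp2* were the only genes of the 9 other than *Pdk4* with an unadjusted p under 0.05 against control, where 1019 of the 12645 genes had one in homozygous mice, and neither survived the adjustment. Per length, *Pdp1* made up 23.1% ± 3.81 of the phosphatase sum in controls, 26.2% ± 2.21 in heterozygous and 30.3% ± 4.92 in homozygous mice. The phosphatase sum itself was 7.06 ± 0.595, 7.16 ± 0.397 and 6.56 ± 0.683 FPKM. Kinase transcripts per phosphatase transcript came to 7.57 ± 0.693 in controls, 10.1 ± 0.886 in heterozygous and 12.5 ± 2.35 in homozygous mice, and without *Pdk4* to 7.24 ± 0.662, 7.25 ± 0.902 and 8.00 ± 0.632.

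**Figure D3:**
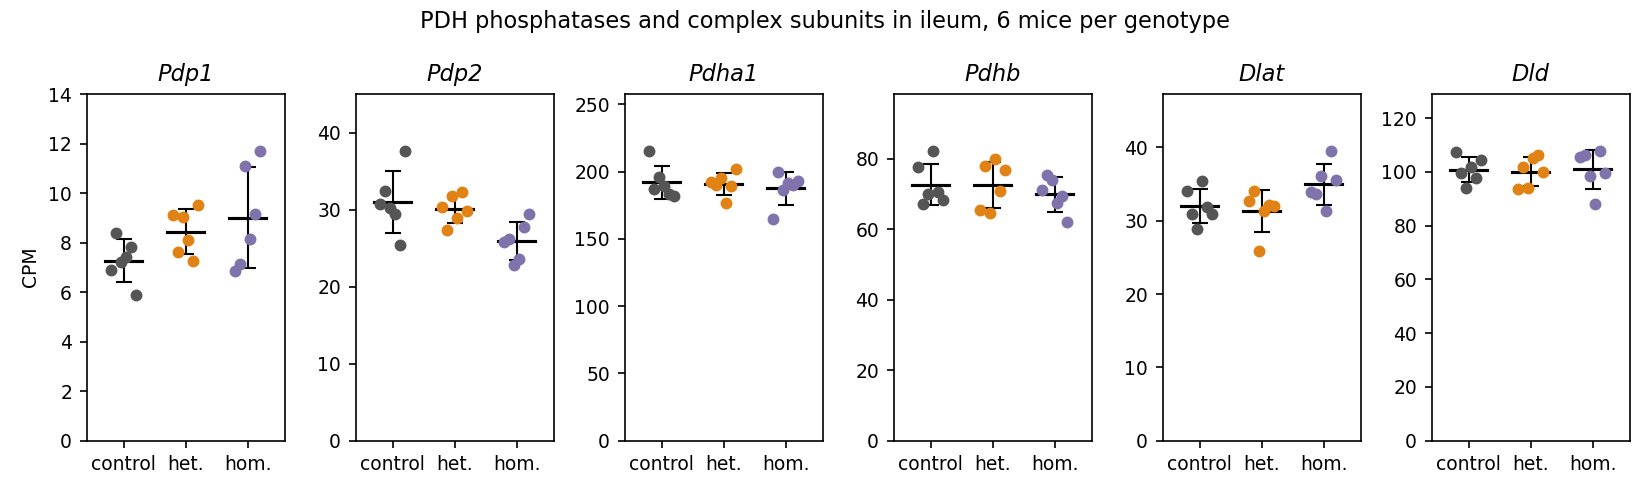
CPM of the phosphatase and subunit genes in every mouse (points) on linear axes that start at 0, with mean and SD as black bars, 6 mice per genotype. The genotypes overlap for each of these 6 genes.

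None of the subunit genes of the complex passed the test in any comparison. Their coefficients of variation in controls, 6.43% for *Pdha1*, 8.10% for *Pdhb*, 7.38% for *Dlat* and 4.70% for *Dld*, lay below the median of all genes. *Pdha1*, the E1α subunit that carries the regulatory phosphorylation sites, averaged 192 ± 12.4, 191 ± 8.33 and 188 ± 12.1 CPM in control, heterozygous and homozygous mice, and its interval for homozygous against control ran from -10.9% to 7.66%. *Pdhb*, the E1β partner of *Pdha1*, averaged 72.7 ± 5.89, 72.6 ± 6.60 and 69.9 ± 4.90 CPM, with an interval of -12.4% to 6.24%. *Dld*, the dihydrolipoamide dehydrogenase that the complex shares with related dehydrogenases, averaged 101 ± 4.73, 100.03 ± 5.47 and 101 ± 7.32 CPM, with an interval of -9.14% to 10.8%. *Dlat*, the E2 core acetyltransferase, averaged 32.0 ± 2.36, 31.3 ± 2.82 and 35.0 ± 2.77 CPM, with an interval of -1.28% to 21.8% (edgeR adjusted p = 0.665). Per length the E1 genes were not equal, *Pdha1* lying 2.74 ± 0.193 times above *Pdhb* in controls, 2.74 ± 0.315 in heterozygous and 2.79 ± 0.287 in homozygous mice.

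Across the 9 genes other than *Pdk4*, log2 fold changes ran from -0.26 (*Pdp2*) to 0.32 (*Pdp1*) in homozygous mice and from -0.10 (*Pdk1*) to 0.25 (*Pdp1*) in heterozygous mice, with lowest adjusted p of 0.542 and 0.987 (edgeR). The median log2 fold change over the 10 genes was 0.012 in homozygous and 0.024 in heterozygous mice, beside -0.0048 and -0.0058 over all genes tested.

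**Figure D4:**
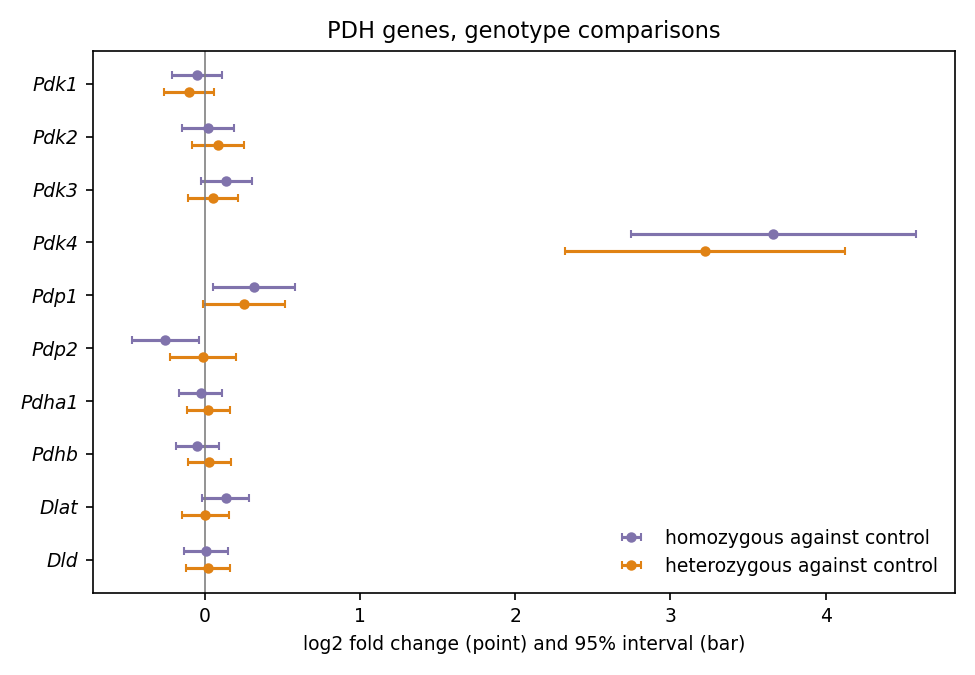
Log2 fold change (point) with its 95% interval (bar) from the edgeR fit for the 10 genes, homozygous and heterozygous mice each against the same 6 controls. *Pdk4*, at 3.66 and 3.22, lies far right of the others, which fall between -0.26 and 0.32.

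The gene of the transgene, *Ppara*, the fatty-acid-sensing nuclear receptor, was at 25.8 to 47.4 CPM in controls (mean 38.1 ± 8.40), 107 to 196 in heterozygous (141 ± 35.4) and 184 to 279 in homozygous mice (216 ± 35.5). The counts do not tell reads of the native gene from reads of the transgene. Within heterozygous mice *Pdk4* was higher where *Ppara* was higher, with Pearson's r = 0.92 of log2 CPM and Spearman's rho = 0.771 (n = 6, two-sided exact permutation p = 0.0194 and 0.103, adjusted over the 3 genotypes 0.0583 and 0.308), and r was 0.895 after the 2 mice most remote from the median *Ppara* level were left out. The corresponding r was -0.12 within controls (rho -0.20, exact permutation p = 0.810 and 0.714, adjusted 0.810 and 0.714, r without 2 libraries -0.52). Within homozygous mice r was -0.59 (rho -0.54, exact permutation p = 0.214 and 0.297, adjusted 0.321 and 0.446, r without 2 libraries -0.93). None of the 3 relations passed after adjustment on this scale. On CPM with TMM factors, which rescale each library by its makeup, r in heterozygous mice was 0.920 and passed (exact permutation p adjusted over the 3 genotypes 0.0417, and 0.100 for rho), and in controls r without 2 libraries turned to 0.342. In homozygous mice the TMM scale gave r = -0.66, rho = -0.77 and r without 2 libraries of -0.55. Homozygous 3, with the highest *Pdk4* of all mice (179 CPM), shared the lowest *Ppara* level of its group (184 CPM) with homozygous 2.

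Markers of the gut wall also differed between these libraries. The summed CPM of 10 smooth muscle markers ranged from 521 to 5698 in controls (median 3640), from 657 to 4156 in heterozygous (median 3269) and from 3890 to 8970 in homozygous mice (median 4671), and all 10 had reads in every genotype. Control 6, lowest in *Pdk4*, was also the lowest of all mice in smooth muscle markers (521), and homozygous 3, highest in *Pdk4*, was the highest in them (8970), whereas heterozygous 3, at 657, held 90.6 CPM of *Pdk4*. Pearson's r of *Pdk4* with the smooth muscle sum came to 0.853 within controls, -0.33 within heterozygous and 0.868 within homozygous mice (rho 0.543, -0.086 and 0.543; n = 6 each, exact permutation p of r 0.0417, 0.578 and 0.0458, and of rho 0.297, 0.919 and 0.297). With the sum of 12 enterocyte markers, which lay between 22648 and 32216 CPM in all mice, r was -0.93, 0.103 and -0.89 (rho -0.66, -0.20 and -0.89; exact permutation p of r 0.0111, 0.865 and 0.0236, and of rho 0.175, 0.714 and 0.0333). The sum of 10 fibroblast markers ranged from 1784 to 4892 CPM in controls, 1395 to 3334 in heterozygous and 2600 to 5712 in homozygous mice, and within homozygous mice its r with *Pdk4* was 0.833 and rho 0.829 (n = 6, exact permutation p = 0.0347 and 0.0583), with r = 0.862 after the 2 outermost libraries were left out. That relation and those with smooth muscle and enterocyte markers in control and homozygous mice were the 5 with an unadjusted p of r under 0.05 in the exact permutation test. After adjustment over the 30 relations computed (10 marker lists in 3 genotypes), 0 passed for r, the lowest adjusted p being 0.275, and the relations with smooth muscle and enterocyte markers in controls and homozygous mice rested in part on the outermost libraries: without the 2 farthest from the median, r with smooth muscle was 0.596 and 0.577, and with enterocytes -0.43 and -0.20. In the heterozygous mice the same step gave 0.393 and -0.999.

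With the smooth muscle sum as a covariate, chosen after the data were seen, the log2 fold change of *Pdk4* was 3.46 in homozygous and 3.43 in heterozygous mice. With the enterocyte sum it was 4.04 and 3.66, and each passed the threshold. The enterocyte list includes *Fabp2*, which the study reported as higher in IEC-*Ppara* ileum. Whether the enterocyte sum itself shifts with genotype was not tested. The difference between homozygous and heterozygous mice was 0.03 (SE 0.43) with the smooth muscle sum, against 0.44 without it. Since bulk tissue was sequenced, more cells of a type and more RNA per cell cannot be told apart. The summed levels of other lists overlapped between all genotypes as well. B cell markers had medians of 22.5 CPM in control, 21.1 in heterozygous and 16.4 in homozygous mice. They reached 577 CPM in control 2, 458 in control 3, 326 in heterozygous 2 and 94.8 in homozygous 1. In homozygous mice their relation with *Pdk4* had r = 0.422 and rho = 0.886 (n = 6, exact permutation p = 0.339 and 0.0333, adjusted 0.697 and 0.5). T cell markers had medians of 56.3 CPM in control, 36.0 in heterozygous and 35.8 in homozygous mice. Striated muscle markers lay between 30.6 and 201 CPM, with reads for 9 of 10 in controls and 10 of 10 in the IEC-*Ppara* groups. Their medians were 119, 56.6 and 62.7 CPM in control, heterozygous and homozygous mice. Adipocyte markers lay between 90.6 and 1318 CPM, with medians of 232, 130 and 384 CPM in the same order. The relations of *Pdk4* with the striated muscle and adipocyte lists within each genotype were among the 30 computed. Neither list was used as a covariate. The largest r of *Pdk4* with the striated muscle and adipocyte lists was that with striated muscle markers in homozygous mice. It had r = 0.803 and rho = 0.657 (n = 6, exact permutation p = 0.0611 and 0.175, adjusted 0.306 and 0.725), and r was -0.32 without the 2 outermost libraries.

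**Figure D5:**
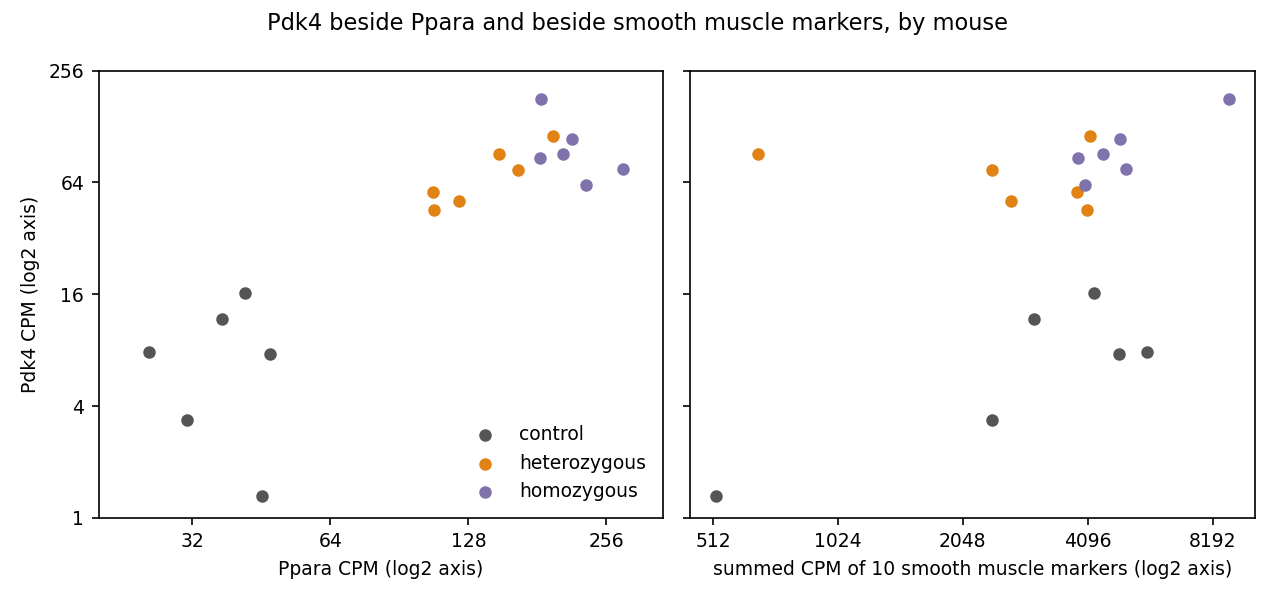
*Pdk4* CPM of each mouse against *Ppara* CPM (left) and against the summed CPM of 10 smooth muscle markers (right), all on log2 axes and coloured by genotype. Every IEC-*Ppara* mouse lies above every control in *Pdk4*, also where the smooth muscle sum is as low as 657, and *Ppara* separates the controls from the rest.

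Among the genes whose pattern was most like that of *Pdk4* over the 18 libraries were *Hsdl2* (Pearson's r of log2 CPM 0.963), *Pxmp4* (0.939), *Esr1* (0.939) and *Fabp1*, the fatty-acid-binding protein of liver and gut (0.938). These coefficients carry the step between genotypes, so they describe a shared difference and not a relation between mice. *Fabp1* averaged 10.8 ± 3.30, 111 ± 33.7 and 158 ± 13.5 CPM in control, heterozygous and homozygous mice. *Esr1* held 5.25 ± 2.12, 80.9 ± 6.24 and 76.8 ± 7.74 CPM. *Villin-CreERT2*, present only in the IEC-*Ppara* mice, contains an estrogen receptor domain. Whether reads of *Villin-CreERT2* were counted as *Esr1* was not tested. With each genotype's mean subtracted, the nearest genes included others: *Prkag2*, a subunit of the energy sensor AMPK (0.875), *Dctn4* (0.872), *Pxylp1* (0.858) and *Homez* (0.842), and none of these 4 passed the test between homozygous and control mice.

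Relations between the 10 genes were also described with genotype means subtracted. The strongest Pearson's r among the 45 pairs of the 10 genes was that of *Pdk2* with *Pdk3* (0.757 over 18 libraries), followed by *Dlat* with *Dld* (0.562), *Pdk3* with *Dld* (0.510) and *Pdhb* with *Dld* (0.487). *Pdk4* with *Pdp2* came to -0.44. On the same scale the nearest gene of all was *Mastl* for *Pdk1* (0.820), *Ints12* for *Pdk2* (0.873), *Cpped1* for *Pdk3* (0.807), *Ocrl* for *Pdp1* (0.852), *Rab11fip4* for *Pdp2* (0.866), *Srp54a* for *Pdha1* (0.822), *Sec22b* for *Pdhb* (0.879), *Naa20* for *Dlat* (0.796) and *Mrpl18*, a mitochondrial ribosomal protein, for *Dld* (0.834). All points share library depth and tissue makeup, and these values carry no test.

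Lists of genes around the complex were short beside the share called over all genes tested, 0.372% higher and 0.0395% lower in homozygous mice and 0.293% and 0% in heterozygous mice, so that a count of 0 called is no result about a list. Of 4 tested PDH accessory genes 0 were called in either comparison with control (*Lipt1* did not pass the filter): *Pdhx*, which anchors *Dld* to the core, averaged 18.8 ± 1.38, 18.0 ± 1.51 and 18.3 ± 1.94 CPM, and *Pdpr*, the regulatory subunit of the phosphatase, had the lowest log2 fold change of the list in homozygous mice, -0.11 (edgeR adjusted p = 0.945), and *Lipt2* the highest, 0.085. Of 15 genes of pyruvate entry, lactate and anaplerosis 0 were called. The mitochondrial pyruvate carrier genes *Mpc1* and *Mpc2* had log2 fold changes of -0.10 and 0.0043 in homozygous mice, and *Ldha*, the main lactate dehydrogenase subunit, averaged 921, 933 and 884 CPM. *Ldhb*, the heart-type subunit, ranged from 1.01 to 22.3 CPM in controls, 1.08 to 21.2 in heterozygous and 13.1 to 35.3 in homozygous mice, the lowest control being control 6 and the lowest heterozygous mouse heterozygous 3, the same mice that were lowest in smooth muscle markers. *Me1*, the cytosolic malic enzyme, had the highest estimates of that list, 1.06 in homozygous (edgeR adjusted p = 0.407) and 1.18 in heterozygous mice (adjusted p = 0.428), and *Gpt* the lowest in homozygous mice, -0.23. *Pck1*, the cytosolic enzyme that makes phosphoenolpyruvate for gluconeogenesis, chosen here after its values were seen, averaged 39.2 ± 12.3, 56.3 ± 29.7 and 62.9 ± 20.02 CPM. Its estimates were 0.58 for heterozygous and 0.69 for homozygous mice, the latter with an edgeR adjusted p of 0.587, and neither was called.

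Against the same shares of 0.372% higher and 0.0395% lower over all genes in homozygous mice, 0 of 17 glycolytic genes were called, and the highest log2 fold change in homozygous mice was that of *Pfkl*, the liver-type phosphofructokinase, at 0.36 (edgeR adjusted p = 0.157). Of 16 genes of the tricarboxylic acid cycle 0 were called, with 14 estimates below and 2 above 0 in homozygous mice and a median log2 fold change of -0.039, between *Ogdh* at -0.14 and *Suclg2* at 0.018; in heterozygous mice 9 were above 0 and the median was 0.011. Of 10 tested genes of related dehydrogenase complexes, including the branched-chain ketoacid dehydrogenase, 0 were called, between *Ogdhl* at -0.20 and *Bckdhb* at 0.17, while *Dhtkd1* and *Gldc* did not pass the filter. Of 15 genes known to govern the kinases, *Ppara* alone was called, with log2 fold changes of 2.51 (SE 0.18) and 1.92 in homozygous and heterozygous mice. *Ppara* is the gene of the transgene, so the design itself raises it and its call is no result about the list. The lowest estimate in homozygous mice was that of *Irs2*, -0.12. The median of all genes tested was -0.0048.

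Sex was taken up because *Pdk3* and *Pdha1* lie on the X chromosome and the sexes were unequal in number. In a fit with genotype, 7 of 12645 genes (0.0554%) differed between females and males and none of the 10 was among them. *Dlat* was 1.10-fold higher in females (edgeR adjusted p = 0.998), *Pdk3* 1.01-fold (adjusted p = 0.998) and *Pdha1* 1.04-fold (adjusted p = 0.998). *Pdk4* had a log2 difference of -0.46 for females against males (95% interval -1.16 to 0.24). A genotype effect that differs between the sexes was tested with heterozygous and homozygous mice pooled against control. For it, 0 genes (0%) were called by edgeR, with 606 at an unadjusted p under 0.05, and limma-voom called 0 as well. In this pooled fit the log2 difference of the effect on *Pdk4* between sexes was -0.11, with a 95% interval of -1.64 to 1.41.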

How the data were processed

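RNA from full-thickness ileum of 18 mice was sequenced as poly-A libraries of paired reads. The authors aligned reads with STAR, counted them per gene with featureCounts and deposited counts, CPM and FPKM for each sample and a CPM table for the series. A deposited log2 table was not used for a value here. CPM equalled each count divided by the library's total. The 10 genes, the gene lists and the tests were chosen with earlier results of these data known.

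Protein-coding genes above 3 CPM in at least 4 libraries (12645) were tested with edgeR 4.0.16 (R 4.3.3), quasi-likelihood with TMM factors and library sizes summed over these genes, all 18 libraries in 1 fit by genotype, and Benjamini-Hochberg adjusted p under 0.05 over all of them. Intervals are 95%. Totals ranged from 38528522 to 50376371 counts per library, and p-values measure the spread between mice. Alternatives were DESeq2 1.42.0, limma-voom (limma 3.58.1), library size scaling, other filters, sex or marker covariates, a replicate block and leaving out each library; marker covariates were added after the data were seen. Shares and levels between genes use deposited FPKM. Correlations use log2 CPM with a prior count of 0.5 for likeness between genes. Named genes were the 10 members, *Ppara*, *Pdhx*, *Pdpr*, *Mpc1*, *Mpc2*, *Ldha*, *Ldhb*, the extremes and called genes of each list, and the nearest genes by correlation, of which some are not reported here; *Me1* in heterozygous mice and the control coefficients of variation were read after values were seen. Promoters came from RefSeq (GRCm38.p6).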

Additional observations from a re-analysis of the deposited data

Results flagged for a closer look

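*Dlat* in heterozygous 3 was at 25.9 CPM, while the other heterozygous mice lay between 31.3 and 34.1. Its gap to the nearest mouse was 0.660 of the range of the group, above the critical value of 0.625 for 6 samples. It was 1 of 30 groups examined (10 genes in 3 genotypes), where chance alone flags about 1 in 20. The same library had the lowest smooth muscle markers of its group (657 CPM in sum), and the part of that in its *Dlat* level was not tested.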

How the results depend on the processing

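*Pdk4* was called against control in every setting run, and no other of the 10 genes was called in any: its log2 fold change lay between 3.46 and 4.04 in homozygous mice and between 3.13 and 3.66 in heterozygous mice, or 3.44 to 3.97 and 3.01 to 3.53 with 1 library left out. Homozygous against heterozygous, it lay between 0.027 and 0.48 and between 0.22 and 0.61 with 1 library left out, and was never called. Between same-numbered mice r ran from -0.62 to 0.641 over 18 pairs, with 0 matching best with their own number. Profiles of bulk tissue cannot settle whether the numbers pair mice by litter or batch. The study used littermates, and which mice shared a litter is not given in the sources used here. With a replicate block the log2 fold change of *Pdk4* was 3.69 (adjusted p = 0.00320) and 3.32 (0.0125), 0 of the other 9 genes were called, and 22 genes were called in heterozygous mice in place of 37. DESeq2 called 136 genes in homozygous mice in place of 52, 82 in heterozygous mice and 9 between the IEC-*Ppara* genotypes in place of 1, and a fit of only the 12 libraries compared called 23 in heterozygous mice; the cause was not tested. Between the IEC-*Ppara* genotypes 0 genes were called without a filter, with a minimum of 10 reads per library, with sex, smooth muscle markers or enterocyte markers as a covariate, with the replicate block and with only 12 libraries; leaving out 1 library gave 0 to 2. With 1 library left out 43 (without homozygous 3) to 65 genes (without control 1) were called in homozygous mice and 25 (without control 3) to 55 (without heterozygous 1) in heterozygous mice. Signs turned only for values near 0. Homozygous against control these were *Pdk1* (0.011 with smooth muscle markers), *Pdk2* (-0.018 with enterocyte markers) and *Dld* (-0.0018 by library size, -0.0041 with at least 10 counts, -0.024 with enterocyte markers). Heterozygous against control they were *Pdha1* (-0.0088 by library size), *Pdhb* (-0.0035 by library size), *Dlat* (-0.031 by library size, -0.0010 with at least 10 counts, -0.0027 with limma-voom, -0.0035 with the replicate block, -0.0048 with enterocyte markers) and *Dld* (-0.012 by library size, -0.0034 with enterocyte markers). Homozygous against heterozygous it was *Dld* (0.010 by library size, 0.017 with smooth muscle markers). Leaving out 1 library turned *Pdk2* (-0.013 to 0.056), *Pdha1* (-0.049 to 0.0085) and *Dld* (-0.016 to 0.046) homozygous against control. It turned *Pdk3* (-0.015 to 0.086), *Pdp2* (-0.071 to 0.079), *Pdhb* (-0.0053 to 0.061), *Dlat* (-0.020 to 0.052) and *Dld* (-0.0096 to 0.057) heterozygous against control, and *Pdk2* (-0.098 to 0.013), *Pdp1* (-0.029 to 0.14) and *Dld* (-0.039 to 0.028) homozygous against heterozygous. On CPM with TMM factors the r of *Pdk4* with *Ppara* in heterozygous mice was 0.920 and its exact permutation p adjusted over 3 genotypes was 0.0417, past the threshold. The lowest count behind any value of the 10 genes was 52 reads (*Pdk4* in control 6).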
